A study of Mus musculus with 19 samples.

Results

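The oxidative phosphorylation genes described here are 55 nuclear genes of the mitochondrial respiratory chain and ATP synthase, out of 22756 gene entries measured. They were taken as the entries whose symbol, alone or inside a joined name, stood on a list of such genes. The list held 22 genes of complex I, 4 of complex II, 6 of complex III, 8 of complex IV and 13 of complex V. It also held Cycs, which encodes cytochrome c, and Tfam, which encodes a factor that packages and transcribes mitochondrial DNA and is not a subunit of any complex. All 55 were found as single entries, each had at least 144 reads in every library, and all passed the filter on low counts in every comparison. No measured value entered this rule, but the list was chosen with earlier results of these data known.

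The study sequenced RNA of a mouse embryonic stem (ES) cell line in 19 libraries. The line reports activity of Rex1, a gene of the naive state, through a short-lived green fluorescent protein (GFP), so GFP marks cells with active Rex1. All groups share this reporter, and no other genetic change is given in the labels. Undifferentiated GFP-positive cells kept in LIF plus MEK and GSK3 inhibitors gave 1 library. Cells placed in differentiation medium with serum for 2 days gave 1 library titled without a fraction and 1 titled as sorted for lack of SSEA1 and GFP, although the sample descriptions of these libraries read alike. Sorted day-2 cells were then kept in differentiation medium to day 15. Without AICAR they gave 1 library, called day-15 cells below. With AICAR, a nucleoside that cells convert to an AMP mimic that activates the energy sensor AMPK, they gave 1 library of unfractionated cells, 1 of GFP-negative cells and 3 of GFP-positive cells. GFP-positive cells were afterwards expanded again with LIF and the inhibitors, as 8 lines from picked colonies (colony lines) and 2 lines from sorted cells (sorted lines). The labels do not say whether replicates were separate cultures, and the p-values therefore reflect the spread among libraries, which may be technical.

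In oxidative phosphorylation, complexes I and II take electrons from NADH and succinate, complex III passes them through cytochrome c to complex IV, and complex IV hands them to oxygen. Complexes I, III and IV pump protons across the inner mitochondrial membrane, and complex V, the ATP synthase, uses the return flow to make ATP. Naive mouse ES cells are known to use both glycolysis and respiration, and cells that leave this state are known to shift the balance between them. Most subunits are encoded in the nucleus. The subunits encoded by mitochondrial DNA were not analysed here.

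Promoter sequences are shown for 1 member of each of complexes II to V, Cycs and Tfam, because these genes carry much of what follows. Each is the run of 120 bases before the start site, written 5′ to 3′ on the gene's strand, with the letters of a searched motif in capitals.
Sdha: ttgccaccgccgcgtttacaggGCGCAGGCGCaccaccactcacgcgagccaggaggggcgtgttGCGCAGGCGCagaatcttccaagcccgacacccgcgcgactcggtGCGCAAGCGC
Uqcrc1: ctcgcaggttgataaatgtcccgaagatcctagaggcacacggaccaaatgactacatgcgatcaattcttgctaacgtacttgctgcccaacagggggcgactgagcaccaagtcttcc
Cycs: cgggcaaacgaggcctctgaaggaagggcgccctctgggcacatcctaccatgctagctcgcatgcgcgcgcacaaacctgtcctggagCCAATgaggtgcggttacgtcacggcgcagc
Cox5a: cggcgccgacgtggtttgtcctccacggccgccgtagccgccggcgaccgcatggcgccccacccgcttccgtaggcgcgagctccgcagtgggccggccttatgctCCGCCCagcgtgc
Atp5b: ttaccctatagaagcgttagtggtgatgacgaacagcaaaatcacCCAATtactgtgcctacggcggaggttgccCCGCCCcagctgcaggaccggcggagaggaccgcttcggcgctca
Tfam: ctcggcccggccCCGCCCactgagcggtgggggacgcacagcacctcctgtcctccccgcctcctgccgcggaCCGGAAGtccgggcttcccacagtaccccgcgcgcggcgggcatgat

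These sequences are from RefSeq on build GRCm38.p6, which is not the build the reads were aligned to, and serve here only as the genes' own sequence. They lie at chr13:74350241-74350360 on the minus strand (Sdha), chr9:108936528-108936647 on the plus strand (Uqcrc1), chr6:50566570-50566689 on the minus strand (Cycs), chr9:57521112-57521231 on the plus strand (Cox5a), chr10:128083187-128083306 on the plus strand (Atp5b) and chr10:71238045-71238164 on the minus strand (Tfam). A promoter was found for 43 of the 55 genes, and 6 motifs were searched on both strands in the 300 bases from 250 before to 50 after the start. Members are counted by gene and all promoters by distinct sequence, so the paired shares below have different units. The NRF1 motif GCGCNTGCGC, named for a regulator of nuclear genes for mitochondria, was present in 14 of the 43 (32.6%) and in 4.63% of all 32544 promoters in the table. The ETS motif CCGGAAG, bound by GABP, was present in 12 (27.9%) and in 8.91% of all promoters. The YY1 motif AAGATGGC was present in 5 (11.6%) against 2.77%, and the estrogen-related receptor motif TCAAGGTCA in 2 (4.7%) against 0.41%. The SP1 motif GGGCGG was present in 19 (44.2%) against 35.88%, and the CCAAT box in 16 (37.2%) against 37.36%. No searched motif contains another, and a match is a description of letters, not of a bound site. Sdha carries 3 NRF1 matches in the stretch printed, all on the other strand, while the NRF1 match of Uqcrc1 lies outside it.

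Each library held between 5771671 and 14233421 reads in genes. Levels are CPM, the usual read counts brought to a common library total, scaled by TMM factors over all 19 libraries, and levels of different genes are compared only per length, as RPKM. Replicates of a group differed by more than counting noise in all 32 pairs, where chi-square over its degrees of freedom was 1.96 to 51.05 and counting noise alone gives 1. AICAR GFP-positive replicates 1 and 2 are alone in the second of 2 sequencing projects, so project and group are tied for these libraries. The 8 pluripotency markers summed to 5547 CPM in undifferentiated cells, 68.9 CPM in day-15 cells and 3651 to 5345 CPM in the AICAR GFP-positive libraries. Their sum was 5081 to 5556 CPM over the colony and sorted lines. This list includes Zfp42, which is Rex1 itself, and the GFP-positive cells were sorted by its reporter. Part of the sum in the GFP-positive libraries is thus tied to the sort. Fewer cells of a type and less RNA per cell cannot be told apart in these bulk libraries.

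As a set, the 55 genes were highest in undifferentiated cells, lowest in day-15 cells and between them in every AICAR library. Their summed level was 14095 CPM in undifferentiated cells, 11070.5 CPM at day 2, 9941 CPM in the day-2 sorted library and 5605 CPM in day-15 cells. The unfractionated AICAR library held 7580.3 CPM and the AICAR GFP-negative library 8075 CPM. The AICAR GFP-positive libraries held 10768, 10377.5 and 9336 CPM (mean 10160.4 ± 740.5, SD, n = 3). The colony lines held 12657 ± 932.5 CPM (SD, n = 8) and the sorted lines 13813 and 13265 CPM. The GFP-positive libraries lay above the day-15 and the other AICAR libraries and around the day-2 sorted library, and every line lay above all 3 of them and below the undifferentiated library. The genes took 1.36% of the reads in undifferentiated cells and 0.621% in day-15 cells.

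**Figure D1:**
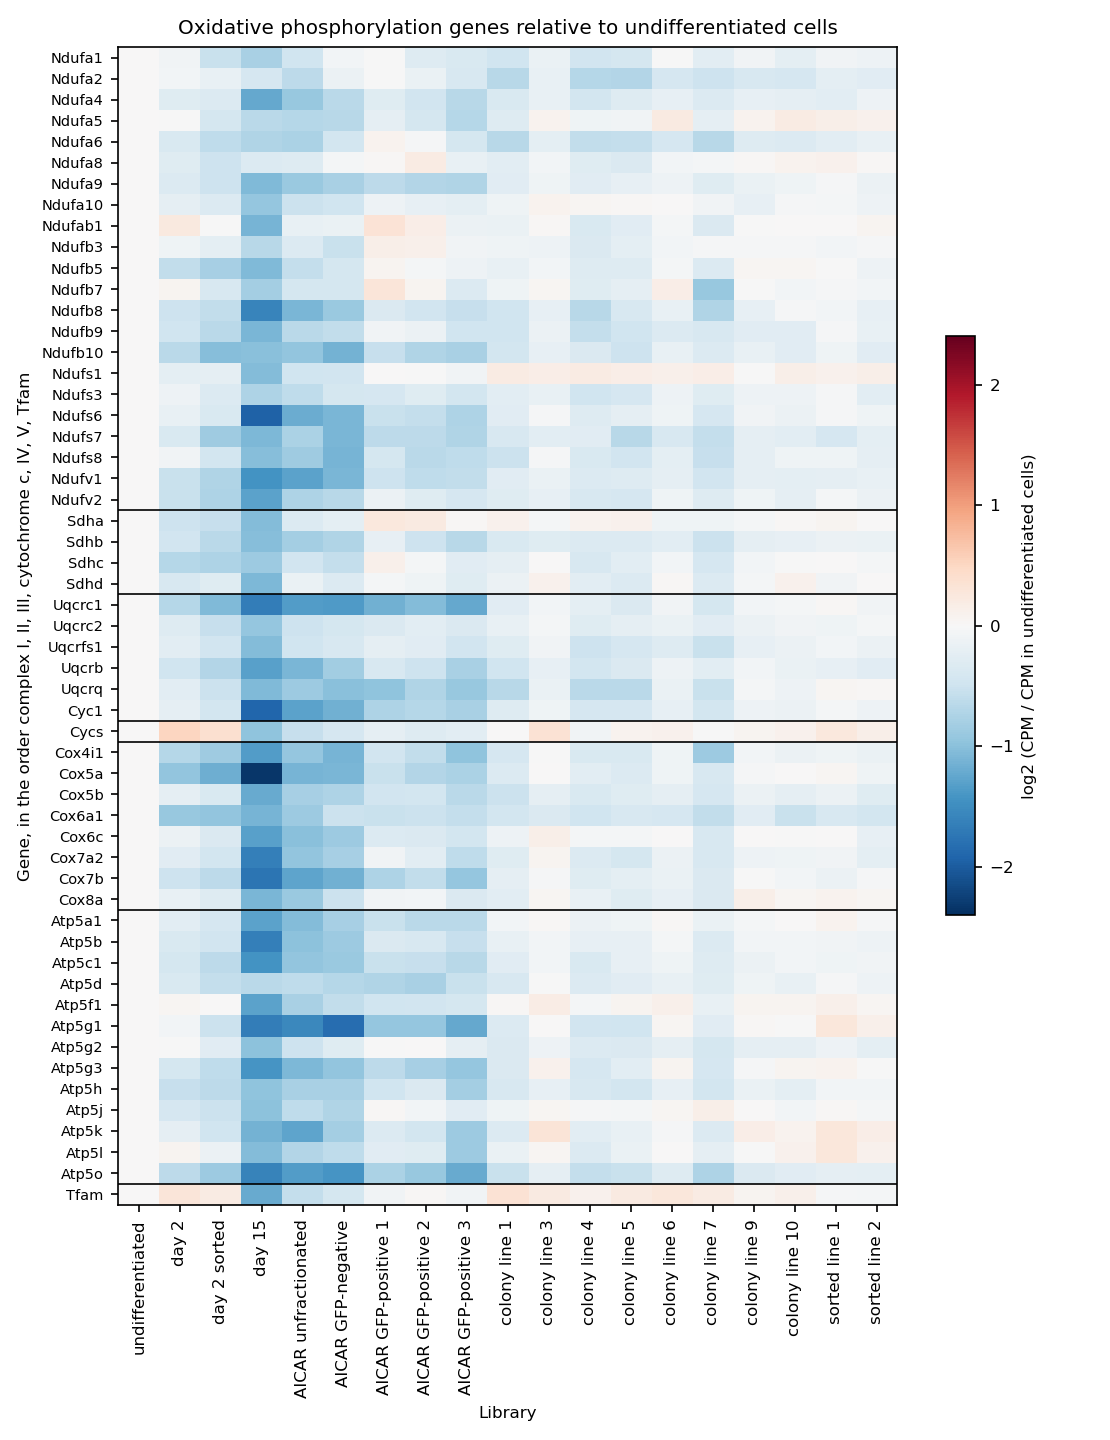
Level of each of the 55 genes (rows, by complex) in each of the 19 libraries (columns), as log2 of CPM over the CPM in undifferentiated cells. Blue is lower and red is higher. The day-15 column is blue in all 55 rows, Uqcrc1 and Atp5g1 stay blue across the AICAR libraries, and Cycs and Tfam are red at day 2.

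Per length, the ATP synthase and cytochrome c oxidase genes were the most abundant. The median over genes of the mean RPKM was 346.3 for complex V and 351.8 for complex IV, against 115.6 for complex I, 107.7 for complex II and 190.6 for complex III. Atp5b, the catalytic beta subunit of ATP synthase, had the highest mean at 1529.8 RPKM, and Cox4i1, the common form of cytochrome c oxidase subunit IV, followed at 872.9 RPKM. The means of complex I ran from 67.9 RPKM for Ndufa5 to 300.3 RPKM for Ndufa4. Cycs stood at 247.6 RPKM and Tfam at 57.1 RPKM.

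The genes of highest RPKM in each complex followed the summed level to different degrees. Atp5b had 2999.5 CPM in undifferentiated cells, 2313, 2185 and 958.4 CPM at day 2, in day-2 sorted and in day-15 cells, 2053 to 2347 CPM in AICAR GFP-positive cells and 2401 to 2890 CPM over all 10 lines. Cox4i1 had 670.8 CPM in undifferentiated cells, 265.4 CPM in day-15 cells, 341.4 to 486.9 CPM in GFP-positive cells and 368.6 to 667.2 CPM over the lines. Uqcrb, a small subunit of complex III, had 119.9 CPM in undifferentiated cells, 48.8 CPM in day-15 cells, 91.6, 84.5 and 69.6 CPM in GFP-positive cells and 85.9 to 115.0 CPM over the lines. In these 3 genes the day-15 library was the lowest and the undifferentiated library the highest of all 19. Ndufa4, named for complex I but also found with complex IV, had 124.3 CPM in undifferentiated cells, 53.02 CPM in day-15 cells, 101.7, 89.9 and 78.8 CPM in GFP-positive cells and 91.5 to 114.5 CPM over the lines. Ndufab1, the acyl carrier protein of complex I, had 101.9 CPM before differentiation, 119.6 and 100.6 CPM in the day-2 libraries (the sorted one second) and 47.2 CPM at day 15. Its GFP-positive libraries held 128.7, 114.0 and 92.1 CPM and its lines 78.6 to 106.7 CPM, so that it was highest in a GFP-positive library.

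The first comparisons follow the exit from the naive state, with 1 library on each side. They have no replicate check and no p-value, and a gene is counted when its ratio passes 2-fold. At day 2, 49 of the 55 genes were below and 6 above undifferentiated cells, and no gene passed 2-fold in either direction, against 9.21% of 9763 entries past 2-fold higher and 9.06% lower. The median log2 ratio of the 55 was −0.32, against −0.02 over all entries. Cox5a, a nuclear subunit of complex IV, had 185.0 CPM at day 2 and 357.6 CPM in undifferentiated cells, the largest decrease of the 55. Cycs and Tfam stood on the other side. The level of Cycs was 93.0 CPM in undifferentiated cells, 132.7 CPM at day 2 and 121.6 CPM in the day-2 sorted library. Tfam had 45.8, 55.9 and 52.7 CPM in the same order. Both genes were thus above the undifferentiated level in both day-2 libraries, by less than 2-fold.

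In the day-2 sorted library 53 of the 55 genes were below undifferentiated cells, with a median log2 ratio of −0.51 against −0.04 over all entries. Past 2-fold, 0 genes were higher and 3 were lower, against 9.7% of entries higher and 9.76% lower. The 3 were Cox5a, 2.28-fold lower, Uqcrc1, a core protein of complex III, 2.11-fold lower, and Ndufb10, an accessory subunit of complex I, 2.06-fold lower. With library totals in place of TMM, 1 gene passed, and the share of all entries under that scaling is not given here.

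At day 15 without AICAR all 55 genes were below undifferentiated cells, and 43 passed 2-fold while 0 passed it upward. Of all 11502 entries, 23.6% passed 2-fold lower and 30.1% passed 2-fold higher. The median log2 ratio of the 55 was −1.12, and that of all entries 0.03. Scaling by library totals moved the median of all entries to 0.27 and that of the 55 to −0.88. Under that scaling 21 of the genes passed 2-fold lower, and the share of all entries is not given here. All 8 complex IV genes and 12 of 13 complex V genes passed 2-fold, as did 5 of 6 in complex III, 3 of 4 in complex II and 13 of 22 in complex I. Cycs and Tfam passed it as well. Summed over its genes, complex IV stood at 35.6% of its undifferentiated level, complex III at 37.9%, complex V at 38.0%, complex I at 47.5% and complex II at 49.6%.

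The largest decreases at day 15 were in complexes IV, I and III. Cox5a fell from 357.6 CPM in undifferentiated cells to 71.0 CPM, 5.21-fold. Ndufs6, an accessory subunit of complex I, stood at 108.4 and 28.3 CPM, 3.94-fold lower at day 15. Cyc1, the cytochrome c1 subunit that feeds cytochrome c, stood at 288.9 and 77.5 CPM, 3.86-fold lower. The smallest decreases were in complex I, with Ndufa8 at 45.7 and 36.2 CPM and Ndufa2 at 41.6 and 31.5 CPM. Atp5b had 2999.5 CPM in undifferentiated cells and 958.4 CPM at day 15. Within complex II, which joins the chain to the tricarboxylic acid cycle, the flavoprotein gene Sdha went from 302.1 to 147.7 CPM and the iron-sulfur gene Sdhb from 125.7 to 62.3 CPM. The membrane anchor genes stood at 70.0 and 38.3 CPM (Sdhc) and at 58.7 and 27.9 CPM (Sdhd).

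Against the day-2 sorted library from which day-15 cells descend, 54 of the 55 genes were lower at day 15. Past 2-fold, 13 were lower and 0 higher, against 21.8% of entries lower and 28.2% higher, so the share of the 55 past 2-fold (13 of 55) was close to that of all entries. The median log2 ratio was −0.67 against 0.03 over all entries. Ndufs6 was 3.09-fold lower, Cyc1 2.87-fold, Tfam 2.76-fold and Cycs 2.66-fold. Cycs and Tfam were therefore among the largest decreases after day 2, having been above their starting level at day 2.

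Other genes of the pathway were counted on lists made the same way. For day 15 against undifferentiated cells, 23.6% of all 11502 entries passed 2-fold lower and 30.1% higher. Of 24 further subunits of complexes I to V, 13 passed 2-fold lower at day 15 against undifferentiated cells, led by Cox7c at 71.6 against 246.1 CPM. Of 34 assembly factors with enough reads, 15 passed lower and 1 higher. Ndufaf6, which acts in complex I assembly, stood at 4.10 CPM in day-15 cells and 22.6 CPM in undifferentiated cells. Of 14 genes of the tricarboxylic acid cycle, 5 passed lower, among them Idh3g and Idh3a, subunits of isocitrate dehydrogenase. Of 76 mitochondrial ribosome genes 51 passed lower and 0 higher, and of 14 genes of mitochondrial DNA and biogenesis 6 passed lower. The 6 include Gabpa, which shares its entry with Atp5j and so repeats a gene already counted above. Ssbp1, which binds single-stranded mitochondrial DNA, stood at 26.9 CPM in day-15 cells and 100.3 CPM in undifferentiated cells. A list of 19 genes for glycolysis also held Pdk1, which restrains pyruvate dehydrogenase, and Bnip3, a mitophagy gene. Of these, 4 passed lower and 3, among them Bnip3, passed higher. Gapdh was at 2767 CPM in day-15 cells and 7236 CPM in undifferentiated cells, and Slc2a1, a glucose transporter, at 598.9 and 222.5 CPM.

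Markers of other cell types moved with this comparison. The 10 mesenchyme markers summed to 35952 CPM in day-15 cells and 34.0 CPM in undifferentiated cells, and the 10 endoderm markers to 8066 and 18.97 CPM. The 6 smooth muscle markers summed to 3311 and 6.53 CPM, the 8 cardiac markers to 147.1 and 16.4 CPM, the 8 epithelial markers to 2223 and 385.6 CPM, and the 10 G2-M cell cycle genes to 1571 and 2859 CPM. No marker of any of these lists was at 0 in day-15 cells, while 1 mesenchyme, 2 endoderm, 1 cardiac and 3 epithelial markers were at 0 in undifferentiated cells. Their part in the lower levels of the 55 genes was not tested.

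**Figure D2:**
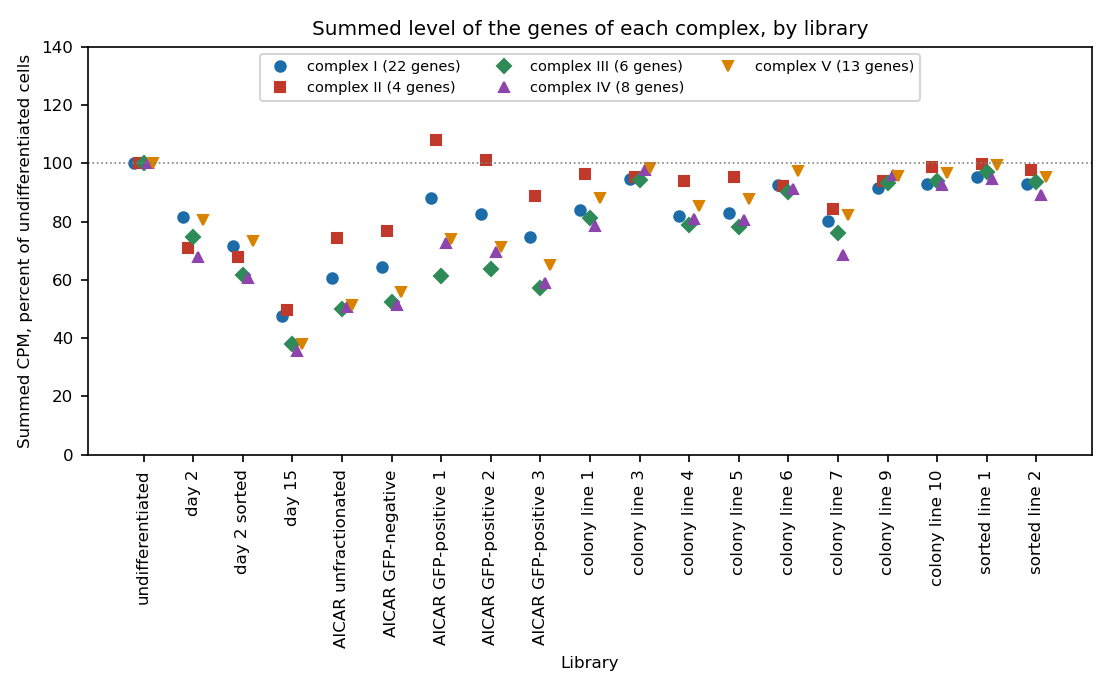
Summed CPM of the genes of complexes I to V in each of the 19 libraries, in percent of the undifferentiated library (dotted line at 100). Day-15 cells lie lowest, between 35.6 and 49.6%, and complex II lies above complexes III, IV and V in all 5 AICAR libraries.

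At day 15 with AICAR, most of the 55 genes stood above day-15 cells in the unfractionated and GFP-negative libraries, though few by much. In unfractionated cells 51 were above and 4 below, with a median log2 ratio of 0.36 against 0.03 over all entries. Past 2-fold, 1 gene was higher and 0 lower, against 9.97% of entries higher and 17.2% lower. In GFP-negative cells 49 were above and 6 below, with a median of 0.44 against 0.02, and past 2-fold 1 was higher and 0 lower, against 11.3% of entries higher and 21.4% lower. The gene was Cox5a in both, at 165.3 CPM in unfractionated and 167.6 CPM in GFP-negative cells, against 71.0 CPM in day-15 cells. The mesenchyme markers summed to 8113 CPM in unfractionated cells, where 1 of the 10 was at 0, and to 833.0 CPM in GFP-negative cells, where none was. The endoderm markers summed to 3558 and 7918 CPM, with none at 0. Their part in these differences was not tested. Both comparisons share the day-15 library.

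The GFP-positive cells of the AICAR culture, the fraction with an active Rex1 reporter, gave 3 libraries. These were set against the day-15 library with edgeR's quasi-likelihood test. Of the 55 genes, 35 were higher and 0 lower at a Benjamini-Hochberg adjusted p under 0.05, and all 55 estimates were above 0 (54 with library totals). Over all 14857 entries tested, 23.1% were called higher and 23.2% lower. The median log2 fold change was 0.76 for the 55 and −0.03 for all entries. In 53 of the genes every GFP-positive library lay above the day-15 library, as in 41.4% of all entries, and the exceptions were Ndufa5 and Atp5d. By complex, 11 of 22 genes rose in complex I, 3 of 4 in complex II, 4 of 6 in complex III, 7 of 8 in complex IV and 8 of 13 in complex V, and Cycs and Tfam rose too. Since the day-15 side is 1 library, the test assumes that it varies like the GFP-positive group. Leaving out GFP-positive replicate 1 left 16 genes and 14.3% of all entries higher, leaving out replicate 2 left 5 genes and 9.09% of entries, and leaving out replicate 3 left 49 genes and 30.2% of entries. With sequencing project as a term 35 genes and 25.2% of entries were higher. That fit compares replicate 3 alone with the day-15 library and takes the spread from replicates 1 and 2, so it adds no support to the count.

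Cox5a had 247.2, 219.8 and 211.6 CPM in the GFP-positive libraries and 71.0 CPM in day-15 cells. It rose by 1.71 ± 0.18 on the log2 scale (SE; edgeR adjusted p = 0.00427). Cyc1 had 172.9, 179.3 and 168.2 CPM against 77.5 CPM, a log2 fold change of 1.20 ± 0.16 (edgeR adjusted p = 0.00653). Ndufs6 had 75.0, 73.1 and 64.9 CPM against 28.3 CPM, a log2 fold change of 1.36 ± 0.19 (edgeR adjusted p = 0.00685). These genes, which had the largest decreases at day 15, showed no overlap between the groups and had the smallest adjusted p of the 55. The comparisons share the day-15 library, so these facts are not independent. Atp5b had 2347, 2308 and 2053 CPM against 958.4 CPM. Sdha had 359.3, 351.5 and 308.5 CPM against 147.7 CPM, a log2 fold change of 1.24 ± 0.19 (edgeR adjusted p = 0.00821). Tfam had 43.5, 46.9 and 43.0 CPM against 19.9 CPM, and Cycs 80.1, 74.9 and 77.9 CPM against 47.9 CPM.

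Other genes lay closer to the day-15 level. Atp5d, the delta subunit of ATP synthase, had 105.8, 101.7 and 120.8 CPM against 111.3 CPM. Uqcrc1 had 228.6, 246.8 and 216.2 CPM against 161.0 CPM, with a log2 fold change of 0.56 ± 0.17 that did not pass (edgeR adjusted p = 0.0508). Uqcrq, a small subunit of complex III, had 43.9, 52.5 and 45.6 CPM against 41.2 CPM. Atp5g1, a gene of the ring-forming subunit c, had 91.3, 91.1 and 74.0 CPM against 55.1 CPM and passed narrowly (edgeR adjusted p = 0.04998).

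**Figure D3:**
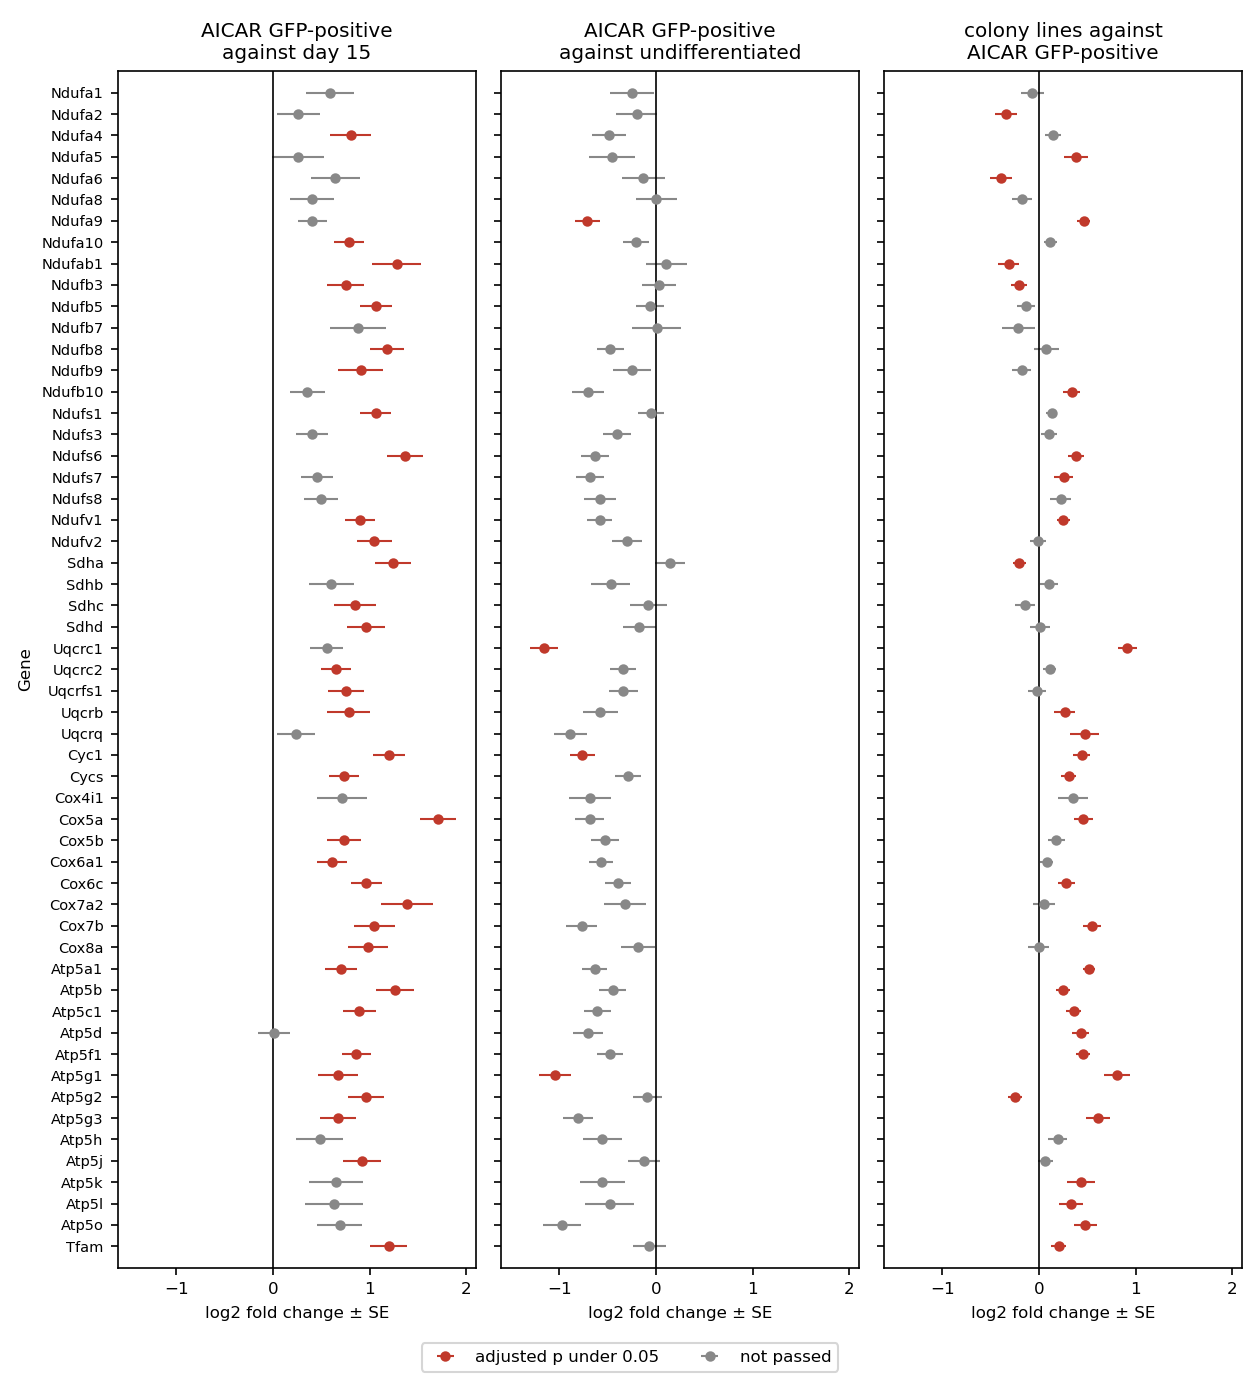
Log2 fold change ± SE of each of the 55 genes from edgeR's quasi-likelihood test in 3 comparisons that share the AICAR GFP-positive libraries. Red marks an adjusted p under 0.05. The left panel holds 35 red genes to the right of 0, the middle panel 4 to the left, and the right panel 25 to the right and 6 to the left.

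Among the other lists of the same comparison, 5 of 24 further subunits rose and 0 fell. That share was near the 23.1% of all entries called higher, while 23 of 24 estimates were above 0, against 49.2% of entries. Ndufa7 stood at a mean of 109.7 CPM against 42.4 CPM. Of 37 assembly factors tested 14 rose and 0 fell, among them Lrpprc, which stabilises mitochondrial mRNA, at 306.8 against 103.5 CPM, and Cox17, a copper chaperone for complex IV, at 105.2 against 24.6 CPM. Of 76 mitochondrial ribosome genes 49 rose and 0 fell, with a median log2 fold change of 1.02. In the tricarboxylic acid cycle 8 of 14 rose, and Suclg2, a subunit of succinyl-CoA ligase, stood at 122.4 against 45.9 CPM. Among 16 genes of mitochondrial DNA and biogenesis 8 rose and 1 fell. The 8 include Gabpa, which shares its entry with Atp5j, so that call repeats one already counted among the 55 genes. Pprc1, a coactivator related to PGC-1, had 467.1, 429.2 and 485.4 CPM against 111.8 CPM, and Ppargc1a, which encodes PGC-1 alpha itself, was the gene that fell, from 4.45 CPM to 0.00, 0.196 and 0.110 CPM. Of the 19 genes of the glycolysis list 4 rose, near the share of all entries, and 1 fell. The median log2 fold change of this list was −0.24.

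Isoforms that differ by tissue or oxygen also moved. Of 7 tested, 4 rose and 1 fell. Cox6b2, a form of complex IV subunit VIb known from testis, had 65.6, 50.1 and 46.6 CPM against 10.9 CPM in day-15 cells, a log2 fold change of 2.35 ± 0.29 (edgeR adjusted p = 0.00556). Cyct, the testis form of cytochrome c, had 9.77, 9.59 and 9.58 CPM and no reads in day-15 cells. Cox4i2, a form of subunit IV known to respond to low oxygen, fell, with 0.00, 0.131 and 0.771 CPM against 7.72 CPM. Cox6b2 and Cyct also stood above the undifferentiated library, which held 28.8 and 2.12 CPM.

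The G2-M genes summed to 3534, 3405 and 3030 CPM in the GFP-positive libraries, against 1571 CPM in day-15 cells. The mesenchyme markers summed to 33.9, 43.2 and 228.3 CPM, with 4, 3 and 0 of 10 at 0, and the smooth muscle markers to 15.9, 12.3 and 67.3 CPM, with 1, 1 and 0 of 6 at 0. The endoderm markers summed to 201.0, 306.7 and 2507 CPM, with 1, 0 and 0 of 10 at 0, so that replicate 3 stood highest in the mesenchyme, smooth muscle and endoderm sums and lowest in the G2-M sum and in the sum of the 55 genes. The part of these cells in the results was not tested.

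Within the AICAR culture, no gene passed the test between GFP-positive and GFP-negative cells. By edgeR's quasi-likelihood test 0 of the 55 genes were higher and 0 lower at an adjusted p under 0.05, as were 0.0% of all 13821 entries in each direction. At an unadjusted p under 0.05 there were 9 genes, all higher, against 10.3% of all entries higher and 11.5% lower. DESeq2 called 2 genes higher, against 4.55% of entries. The estimates were above 0 for 51 genes and for 51.0% of all entries, with a median log2 fold change of 0.27 against 0.02 over all entries. In 43 genes every GFP-positive library lay above the GFP-negative one, as in 39.0% of all entries. Atp5g1 had the smallest p, at 91.3, 91.1 and 74.0 CPM against 48.9 CPM (log2 fold change 0.77 ± 0.20, edgeR adjusted p = 0.155). Without GFP-positive replicate 3, 15 genes and 12.6% of all entries were higher, and with all 19 libraries in 1 fit 11 genes and 12.1% of entries were.

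Against undifferentiated cells, the GFP-positive libraries were lower in 4 genes and higher in 0, while 2.62% of 13640 entries were called lower and 2.43% higher. The 4 genes were Uqcrc1 and Cyc1 of complex III, Atp5g1 of complex V and Ndufa9 of complex I. Uqcrc1 fell by 1.16 ± 0.14 on the log2 scale (edgeR adjusted p = 0.0416), from 506.1 CPM in undifferentiated cells. Atp5g1 fell by 1.04 ± 0.16 (edgeR adjusted p = 0.0453), from 173.0 CPM. Cyc1 fell by 0.76 ± 0.13 (edgeR adjusted p = 0.0483), from 288.9 CPM. Ndufa9 had 95.5, 90.7 and 89.8 CPM against 148.2 CPM. The count depended on the fit, as did that over all entries. It was 21 with DESeq2 (7.62% of entries lower), 26 with all 19 libraries in 1 fit (14.4%) and 25 without replicate 3 (15.7%). It was 29 with sequencing project as a term (10.7%), a fit that sets replicate 3 alone against the undifferentiated library. It was 7 without the filter and 2 with library totals, with 1038 and 859 entries called in either direction, against 689 in the main fit. The count was 0 without replicate 1 (0.281% of entries) or replicate 2 (0.0%). At an unadjusted p under 0.05 the test held 29 genes, all lower, against 1914 of 13640 entries lower and 2084 higher.

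Summed over its genes, complex II stood closest to its undifferentiated level in these libraries, as it did by a small margin over complex I at day 15. It summed to 99.3% of its undifferentiated level in the GFP-positive mean and complex I to 81.8%, while complex V stood at 70.2%, complex IV at 67.1% and complex III at 60.8%. The largest part of the complex II sum was Sdha, which lay above the undifferentiated 302.1 CPM in all 3 GFP-positive libraries. Sdhc had 75.9, 67.8 and 58.3 CPM around the undifferentiated 70.0 CPM, and Sdhd 56.5, 54.5 and 47.9 CPM below 58.7 CPM. Sdhb had 109.1, 88.6 and 79.3 CPM, all below 125.7 CPM. Replicate 3 was the lowest of the 3 in every Sdh gene, and in it only Sdha lay above the undifferentiated level. It alone of the 3 shares its sequencing project with the undifferentiated library. Over all members, 43 lay below the undifferentiated library in all 3 GFP-positive libraries, as did 34.3% of all entries, and 11 overlapped it, 7 of which were in complex I. No test of the difference between complexes was made.

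Expansion of GFP-positive cells with LIF and the inhibitors was followed in the colony and sorted lines, which are both compared with the same GFP-positive libraries. Of the 55 genes, 25 were higher and 6 lower in the colony lines by edgeR's test at an adjusted p under 0.05, with 27.6% of 12225 entries called higher and 30.3% lower. The median log2 fold change was 0.19 against −0.03 over all entries. By complex, 10 of 13 genes rose and 1 fell in complex V, 4 of 6 rose in complex III, 3 of 8 rose in complex IV and 6 of 22 rose and 4 fell in complex I. In complex II none rose and 1 fell. With library totals, which moved the median of all entries to −0.18 and that of the 55 to 0.04, 13 genes were higher and 10 lower. That fit called 7203 entries in either direction, against 7073 in the main fit. Their split by direction is not given here, so an excess of higher calls in the 55 cannot be read from it. Estimates above 0 numbered 29 of the 55 under library totals and 40 in the main fit. With sequencing project as a term, in which only replicate 3 stands for the GFP-positive cells, 21 were higher and 0 lower, against 21.2% and 23.6% of entries. Without GFP-positive replicate 1 none was lower, and without replicate 2 only 1 was, with 6489 and 6430 entries called in either direction. In 19 genes every colony line lay above every GFP-positive library, as in 22.4% of all entries. In 0 genes every line lay below, against 21.1% of entries.

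Uqcrc1 had the smallest p of all 55. It ranged from 378.4 to 492.9 CPM over the 8 colony lines (445.7 ± 44.3 as mean and SD), all above the 216.2 to 246.8 CPM of the GFP-positive libraries. It rose by 0.92 ± 0.09 on the log2 scale (edgeR adjusted p = 2.60e-06). Atp5a1, the alpha subunit of ATP synthase, ranged from 1460.2 to 1674 CPM against 1131.6, 1043.2 and 1044.8 CPM, and rose by 0.52 ± 0.06 (edgeR adjusted p = 8.38e-06). Ndufa9 ranged from 120.4 to 138.8 CPM and rose by 0.46 ± 0.07 (edgeR adjusted p = 4.26e-05). Uqcrc1 and Ndufa9 were among the 4 genes below undifferentiated cells in the GFP-positive libraries, and the shared libraries make these results dependent. Atp5g1 rose by 0.81 ± 0.13 (edgeR adjusted p = 0.000148) and Cyc1 by 0.44 ± 0.09 (edgeR adjusted p = 0.00066). Cycs rose by 0.31 ± 0.08 and Tfam by 0.20 ± 0.07.

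The 6 lower genes were Ndufa6, Ndufa2, Ndufab1 and Ndufb3 of complex I, Sdha, and Atp5g2 of complex V. Ndufa6 had 84.4, 78.6 and 59.7 CPM in the GFP-positive libraries and 50.3 to 67.6 CPM in the lines. Atp5g2 had 196.3, 200.3 and 171.0 CPM against 147.5 to 181.3 CPM in the lines. Ndufa2 had 41.3, 37.2 and 31.8 CPM against 25.4 to 36.8 CPM. The groups overlapped in all 6 genes. GFP-positive replicate 3, which is in the same sequencing project as the lines, was the lowest of its group in Ndufa6, Atp5g2 and Ndufa2.

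In the sorted lines 26 genes were higher than in the GFP-positive libraries and 0 lower, with 17.5% of 12593 entries called higher and 19.1% lower. By DESeq2, 27 were higher and 0 lower, with 4798 entries called in either direction, against 4617 in the main fit. All 29 genes at an unadjusted p under 0.05 in edgeR were higher, against 22.8% of all entries higher and 25.7% lower. The median log2 fold change was 0.28 against −0.05 over all entries. Complex V contributed 11 of the 26, complex I 8, complexes III and IV 3 each, and Cycs the last. Uqcrc1 had 513.3 and 479.7 CPM and was higher by 1.09 ± 0.09 on the log2 scale (edgeR adjusted p = 0.00135). Atp5g1 had 208.5 and 188.3 CPM, both above the undifferentiated 173.0 CPM, and was higher by 1.19 ± 0.12 (edgeR adjusted p = 0.00187). Uqcrq had 88.4 and 88.1 CPM and was higher by 0.88 ± 0.11 (edgeR adjusted p = 0.00318). With library totals 16 genes were higher and 1 lower, with 4781 entries called in either direction, whose split is not given here. Estimates above 0 then numbered 35 of the 55 genes, against 46 in the main fit. Without GFP-positive replicate 2, 17 were higher, with 3500 entries called in either direction. Without sorted line 1 or sorted line 2 only 2 genes were higher, with 1.26% and 1.53% of all entries. Without GFP-positive replicate 3, 2 were lower, with 6514 entries called in either direction.

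**Figure D4:**
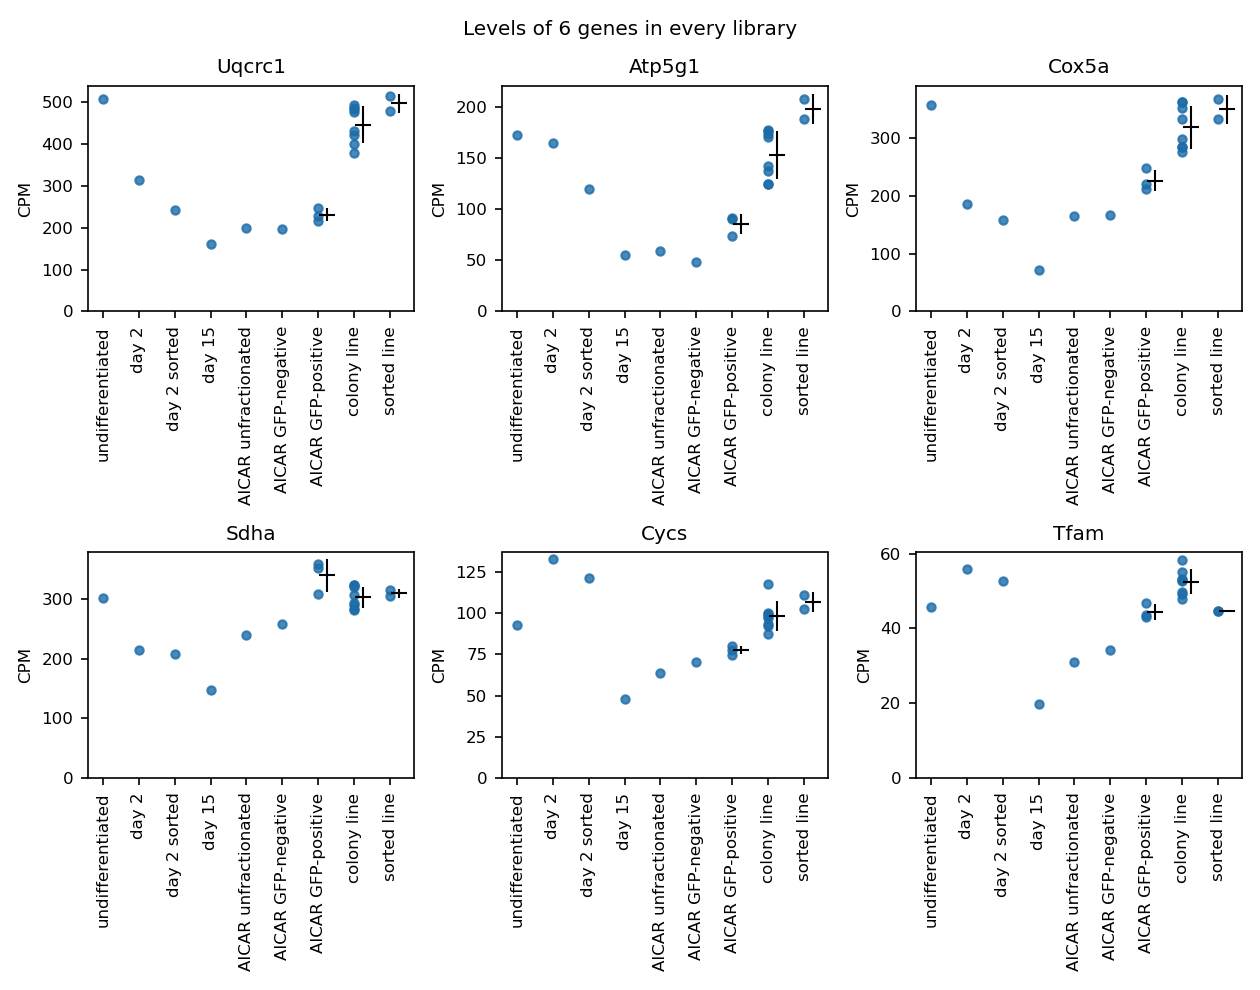
CPM of Uqcrc1, Atp5g1, Cox5a, Sdha, Cycs and Tfam in every library (points), with mean ± SD beside groups of 2 or more. Uqcrc1 and Atp5g1 stay low in the AICAR GFP-positive libraries and lie higher in every line, whereas Sdha is highest in 2 of the 3 GFP-positive libraries and Cycs is highest at day 2. The 2 libraries highest in Sdha are GFP-positive replicates 1 and 2, which are alone in the second sequencing project.

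Of the other lists, colony lines against GFP-positive cells gave 8 higher and 2 lower of 24 further subunits, 10 and 9 of 37 assembly factors, 8 and 2 of 14 tricarboxylic acid cycle genes and 25 and 12 of 76 mitochondrial ribosome genes. Of all entries tested, 27.6% were called higher and 30.3% lower. Tmem70, which acts in ATP synthase assembly, fell from a mean of 26.7 CPM in the GFP-positive libraries to 11.5 CPM in the colony lines. Idh2, mitochondrial isocitrate dehydrogenase, stood at 125.7 CPM in the GFP-positive libraries and 205.1 CPM in the colony lines. On the glycolysis list 3 of 19 rose, Eno1, Hk2 and Gapdh, and 4 fell. Ldhb, a subunit of lactate dehydrogenase, fell from 324.1 to 74.4 CPM, and Pdk1, a kinase that inhibits pyruvate dehydrogenase, from 185.4 to 90.4 CPM. Of 6 isoforms tested 1 rose and 2 fell, with Cyct at 9.65 and 1.91 CPM and Cox6b2 at 54.1 and 26.3 CPM. Of 15 tested genes of mitochondrial DNA and biogenesis 3 rose, Polrmt, Nrf1 and Ppargc1b, and 2 fell, Peo1 and Polg.

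The 3 genes for subunit c of ATP synthase encode the same mature protein with different targeting sequences, and their balance shifted with the groups. In percent of their reads per kilobase, Atp5g1, Atp5g2 and Atp5g3 took 23.8, 26.4 and 49.8 in undifferentiated cells. In day-15 cells the shares were 19.2, 33.7 and 47.1, and in AICAR GFP-negative cells 12.4, 39.9 and 47.7. The AICAR GFP-positive libraries held 17.8 ± 0.617% Atp5g1, 38.4 ± 1.20% Atp5g2 and 43.8 ± 1.55% Atp5g3 (SD, n = 3). The colony lines held 23.9 ± 1.35%, 24.9 ± 1.77% and 51.1 ± 1.66% (SD, n = 8). The sorted lines held 27.2 and 26.5% Atp5g1 and 23.0 and 22.9% Atp5g2. Atp5g2 took 37.1 to 39.4% in the GFP-positive libraries and at most 27.8% in any line, so the groups did not overlap, and no test of the shares was made. In CPM, Atp5g1 rose and Atp5g2 fell from GFP-positive cells to colony lines, as given above, and Atp5g3 rose by 0.61 ± 0.13 on the log2 scale (edgeR adjusted p = 0.000946).

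No gene passed the test between the colony lines and undifferentiated cells, or between the colony and sorted lines. Colony lines against the single undifferentiated library gave 0 genes higher and 0 lower by edgeR's test, with 0.00812% of 12314 entries called higher and 0.0244% lower. At an unadjusted p under 0.05 there were 17 genes, all lower, against 8.84% of all entries lower and 10.5% higher. DESeq2 called 0 higher and 1 lower, against 2.32% and 0.763% of entries. The estimates were below 0 for 51 of 55 and for 51.1% of all entries, with a median log2 fold change of −0.22 against −0.01 over all entries, and 32 genes lay below the undifferentiated library in all 8 lines, as did 19.4% of entries. Cox6a1, a complex IV subunit, had the smallest p, with 78.5 to 96.9 CPM in the lines against 117.6 CPM (log2 fold change −0.47 ± 0.12, edgeR adjusted p = 0.122). Colony lines against sorted lines also gave 0 higher and 0 lower by edgeR's test, against 0.0% of 11870 entries, with 0 by DESeq2. At an unadjusted p under 0.05 there were 6 genes lower and 1 higher in the colony lines, against 4.72% and 4.48% of all entries. The estimates were below 0 for 50 of 55 and for 50.1% of entries, with a median log2 fold change of −0.13. A p that misses the threshold does not show that the lines are alike. Atp5g1 was lower in the colony lines by 0.38 ± 0.14 on the log2 scale (edgeR adjusted p = 0.52).

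Among the colony lines the summed level of the 55 genes varied from 11257 to 13743 CPM. Lines 1, 3, 4 and 5 held 12115, 13743, 11856 and 12075 CPM. Lines 6, 7, 9 and 10 held 13391, 11257, 13353.0 and 13463 CPM. Lines 3, 6, 9 and 10 were the higher ones and lines 1, 4, 5 and 7 the lower ones. The 19 genes of the glycolysis list summed to 11721, 14080.0, 11839 and 11849 CPM in lines 1, 3, 4 and 5 and to 14634, 11345, 16177 and 14107 CPM in lines 6, 7, 9 and 10. The lines that were high in one sum were high in the other. The sums share library and scaling, and the lines were not grouped for a test. Lines 4 and 5 also held the most endoderm signal among the lines, at 116.4 and 367.3 CPM, and the most smooth muscle signal, at 94.0 and 155.4 CPM, with 4 and 3 of 10 endoderm markers at 0. Their part in the sums was not tested.

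Colony line 7 stood apart on 1 chromosome. Its 453 entries on chromosome 8 with a mean of at least 10 CPM had a median ratio of 0.678 to the other 7 lines, a log2 value of −0.56, while the medians of the 19 other chromosomes lay between −0.02 and 0.04. In the other lines the chromosome 8 median lay between −0.01 and 0.06. Cox4i1 and Ndufb7, a complex I accessory subunit, are the members placed on chromosome 8 by the reference table, in which Atp5f1 was not matched. Cox4i1 had 368.6 CPM in line 7 and 508.2 to 667.2 CPM in the other lines, a ratio of 0.606 to their median. Ndufb7 had 41.7 CPM in line 7 and 64.7 to 87.4 CPM in the other lines, a ratio of 0.559. Both lay below the range of the other lines. Leaving out line 7 moved no count of the 55 genes by over 1.5 times.

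**Figure D5:**
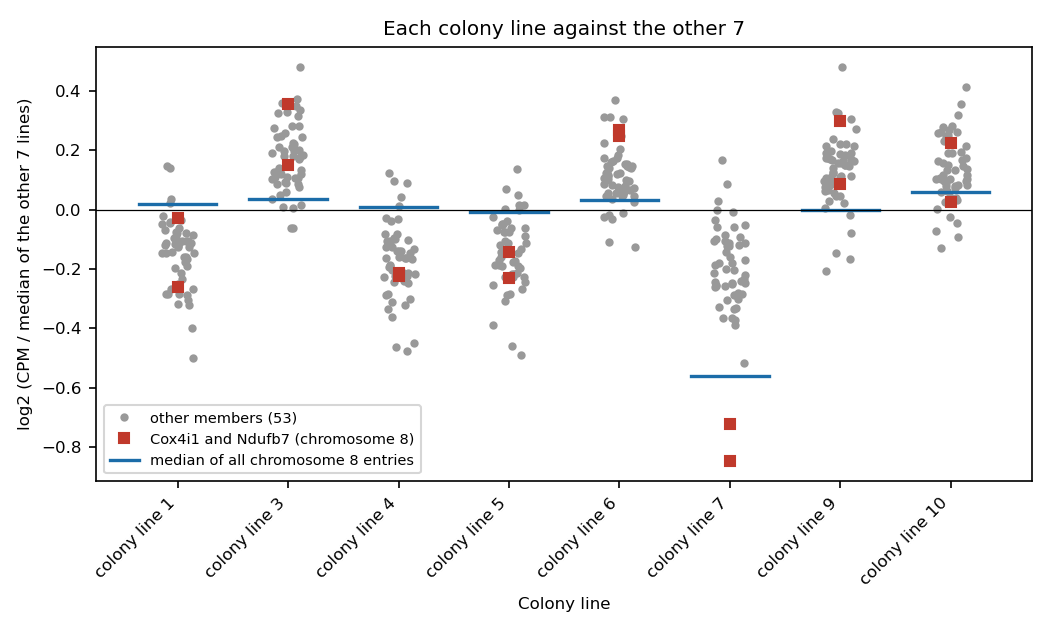
Each of the 55 genes in each colony line, as log2 of its CPM over the median of the other 7 lines, with Cox4i1 and Ndufb7 as red squares and the median of all chromosome 8 entries as a blue bar. In line 7 the bar lies at −0.56 and both red squares lie below it. In the other lines the bar is near 0.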

How the data were processed

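RNA was prepared with RNeasy and libraries with a stranded mRNA kit, per the labels' protocols. The submitters' processing notes list bcl2fastq, CASAVA 1.8.2, Trimmomatic 0.3.3, Bowtie2 2.2.5, TopHat2 2.0.14 and build mm9, without their order. Per the file headers, the authors obtained the deposited read counts with rpkmforgenes from uniquely mapped reads over a RefSeq gene table. The same headers record that the deposited RPKM values leave out 3′ untranslated regions, and RPKM serves here only to compare levels between genes. The gene length implied by RPKM and counts differed by over 1% between libraries for 6 of the 55 genes, so the subunit c shares use each gene's median length.

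Comparisons with a replicated side used edgeR 4.0.16 (quasi-likelihood, TMM, its expression filter, Benjamini-Hochberg over all entries tested, threshold 0.05) in R 4.3.3, with only the compared libraries in the fit. Single libraries were compared by log2 CPM ratio with a prior count of 2, for entries with at least 50 reads in 1 library. DESeq2 1.42.0, library totals, no filter, all libraries in 1 fit, sequencing project as a term, other thresholds and leaving out each library were alternatives. Ndufs1, Atp5f1 and Atp5j are joined with an overlapping gene in their entries, and Gabpa shares its entry with Atp5j. Atp5k, Atp5l, Atp5c1, Ndufab1 and Cycs have near-identical pseudogene copies, so their counts are uncertain.

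All 55 genes are counted by complex. Values by library are given for the Sdh and Atp5g genes, Cycs, Tfam, the genes of highest RPKM in a complex, and up to 3 genes per direction of smallest adjusted p or largest ratio in a comparison. Other genes were named after their values were seen. The members, lists and tests were chosen with earlier results of these data known.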

Additional observations from a re-analysis of the deposited data

Results flagged for a closer look

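The 55 genes, the 5 sums by complex and the sum of all 55 were checked for a colony line far from the other 7, 61 checks in all, of which chance flags about 1 in 20. In 3 of them, 1 line stood apart, which is close to the number that this rate gives. Ndufs1, the largest subunit of complex I, had 237.2 CPM in colony line 9 and 260.7 to 274.2 CPM in the others. Cycs had 117.9 CPM in colony line 3 and 87.5 to 100.4 CPM in the others. The summed level of complex II was 469.9 CPM in colony line 7 and 513.5 to 549.2 CPM in the others.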

How the results depend on the processing

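Of the counts of genes under all alternatives, 195 stayed within 1.5 times the value reported and 33 moved beyond it, while for single genes 175 kept their call, 17 lost it and none reversed. Many of the reported counts are 0, among them both directions for colony against sorted lines, so the tally is not a measure of stability. With DESeq2, 2 genes were higher in AICAR GFP-positive than GFP-negative cells, 21 were lower than in undifferentiated cells, and 1 was lower in colony lines than in undifferentiated cells. With all 19 libraries in 1 fit, the first 2 of these counts were 11 and 26. Library totals gave 2 genes lower in GFP-positive than undifferentiated cells, 13 higher and 10 lower in colony lines than GFP-positive cells, 16 higher and 1 lower in sorted lines, and 1 and 21 past 2-fold lower in day-2 sorted and day-15 cells against undifferentiated cells. No filter gave 7 lower in GFP-positive than undifferentiated cells. Sequencing project as a term, which leaves only GFP-positive replicate 3 to be compared, gave 29 there and 0 lower in colony lines than GFP-positive cells. A 1.5-fold threshold gave 8 and 21 lower at day 2 and in day-2 sorted cells. It gave 34 lower at day 15 against day-2 sorted cells, and 9 and 16 higher in unfractionated and GFP-negative AICAR cells. The share of all entries past 1.5-fold, which is also larger than past 2-fold, is not given here.

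Leaving out 1 library gave 5 to 49 genes higher in GFP-positive than day-15 cells, 0 to 15 higher than in GFP-negative cells and 0 to 25 lower than in undifferentiated cells. It gave 19 to 26 higher and 0 to 7 lower in colony lines, and 2 to 27 higher and 0 to 2 lower in sorted lines, against GFP-positive cells. The share of all entries called moved with these counts in GFP-positive against day-15 cells, from 9.09 to 30.2% higher. Fits with fewer libraries have fewer degrees of freedom. Sorted lines and GFP-positive cells share only replicate numbers, whose deviations had a correlation of 0.0356 over 7498 entries, and a fit with the replicate number as a block gave 29 higher and 2 lower. The cause of these changes was not tested. Each gene had at least 144 reads in every library, and depth was not compared with the spread between libraries.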
